A study of Mus musculus with 16 samples.

Results

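Transcripts of glycolysis and of the response to low oxygen were followed in mouse bone-marrow-derived macrophages, with and without the transcription factor NFAT5 and with and without LPS. The set was defined by name, as 35 genes for the hypoxia-inducible factor HIF-1 and its control, for glucose and lactate transport, for the glycolytic enzymes and for other hypoxia-inducible products. Of these, 32 were measured by a probe set assigned to 1 gene, out of 19937 such genes on the array, and where a gene had several probe sets the one with the highest mean stood for it. Gapdh was carried only by 11 probe sets shared with other genes, and Gpi1 and Eno1 were not in the annotation used, so these 3 were not analysed here. No filter on low values was applied, so all 32 stayed in the tests. Slc16a1, Egln3 and P4ha2 had a mean log2 level under 7 in every group, close to or below the array medians of 6.76 to 6.86.

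The 4 groups were NFAT5 knockout (KO) macrophages with LPS, wild-type (WT) macrophages with LPS, unstimulated KO macrophages and unstimulated WT macrophages, with 4 arrays each. All shared a 129sv background. Total RNA was labelled with biotin and hybridised to 1-channel Affymetrix arrays. The dose and duration of LPS, the animals behind each array and the part of Nfat5 that was altered are not given in the sources at hand. The p-values therefore measure only how these samples vary, and that variation may be technical.

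Glycolysis splits glucose into pyruvate in the cytosol. HIF-1 is a pair of subunits whose alpha subunit, Hif1a, is marked for destruction by prolyl hydroxylases when oxygen is present, and is also induced by inflammatory signals. It switches on glucose transporters, most glycolytic enzymes, the lactate exporter Slc16a3 and the enzymes that turn pyruvate away from mitochondria. Macrophages activated by LPS are known for a shift towards glycolysis and lactate production.

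In the 250 bases before their transcription starts, most of these genes carry the short core that HIF-1 can recognise. The core was searched as ACGTG or GCGTG on both strands in RefSeq windows of build GRCm38.p6, which were matched by symbol for 30 of the 32 genes. It was present in 34 of 42 windows (81%), against 46.2% of 19176 windows of all measured genes and 38.6% of all 32841 windows. The median share of G or C was 62.2% in the windows of the set and 56.8% in those of all measured genes, and its part in the difference was not tested. Of the 30 genes, 28 had the core in at least 1 window, and Eno2 and Tpi1 did not. The core overlapped the E-box CACGTG, which other factors also recognise, in 6 windows. TGGAAA, the start of the element that NFAT5 recognises, was found in 7 of the 42 windows (16.7%), against 16.8% for all measured genes, and the NF-kB consensus in 4 (9.52%), against 8.19%. A match is a run of letters, not a measured binding site. The windows shown are those of 3 genes with some of the largest rises under LPS (Slc2a1, Slc16a3 and Pfkl) and of the 4 genes that differed between KO and WT with LPS (Adm, Hif1a, Pfkfb4 and Eno2). Capitals mark the core on either strand, and each window is written 5′ to 3′ on the strand of its gene.
Slc2a1, chr4:119108495-119108744, plus strand: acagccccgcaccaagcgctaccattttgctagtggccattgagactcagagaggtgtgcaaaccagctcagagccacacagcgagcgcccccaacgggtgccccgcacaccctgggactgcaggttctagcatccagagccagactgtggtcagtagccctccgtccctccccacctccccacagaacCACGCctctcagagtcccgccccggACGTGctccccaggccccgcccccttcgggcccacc
Slc16a3, chr11:120948817-120949066, plus strand: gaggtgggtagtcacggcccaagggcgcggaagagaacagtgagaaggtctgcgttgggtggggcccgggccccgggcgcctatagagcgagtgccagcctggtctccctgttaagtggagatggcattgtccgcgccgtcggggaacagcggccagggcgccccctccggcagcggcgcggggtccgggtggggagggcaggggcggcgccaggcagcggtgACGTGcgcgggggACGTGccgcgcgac
Pfkl, chr10:78009808-78010057, minus strand: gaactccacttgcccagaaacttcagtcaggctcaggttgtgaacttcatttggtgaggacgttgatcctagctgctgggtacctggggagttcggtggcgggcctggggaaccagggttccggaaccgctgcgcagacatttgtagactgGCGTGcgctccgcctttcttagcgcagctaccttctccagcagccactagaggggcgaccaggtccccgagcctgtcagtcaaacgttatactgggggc
Adm, chr7:110627407-110627656, plus strand: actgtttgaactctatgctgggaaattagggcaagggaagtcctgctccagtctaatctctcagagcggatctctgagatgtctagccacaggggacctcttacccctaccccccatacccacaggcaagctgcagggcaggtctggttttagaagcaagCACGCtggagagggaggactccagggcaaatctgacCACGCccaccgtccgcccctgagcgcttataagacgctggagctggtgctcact
Hif1a, chr12:73907617-73907866, plus strand: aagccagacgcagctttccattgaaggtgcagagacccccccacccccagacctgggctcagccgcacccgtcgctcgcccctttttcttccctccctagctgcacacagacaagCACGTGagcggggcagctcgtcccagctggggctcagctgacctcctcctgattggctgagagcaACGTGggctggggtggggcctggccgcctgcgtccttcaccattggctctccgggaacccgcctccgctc
Pfkfb4, chr9:108991652-108991901, plus strand: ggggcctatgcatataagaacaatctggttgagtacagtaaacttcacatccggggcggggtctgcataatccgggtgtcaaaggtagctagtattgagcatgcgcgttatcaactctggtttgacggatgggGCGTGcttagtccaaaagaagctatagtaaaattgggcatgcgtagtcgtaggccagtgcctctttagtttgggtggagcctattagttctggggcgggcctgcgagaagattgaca
Eno2, chr6:124769674-124769923, minus strand: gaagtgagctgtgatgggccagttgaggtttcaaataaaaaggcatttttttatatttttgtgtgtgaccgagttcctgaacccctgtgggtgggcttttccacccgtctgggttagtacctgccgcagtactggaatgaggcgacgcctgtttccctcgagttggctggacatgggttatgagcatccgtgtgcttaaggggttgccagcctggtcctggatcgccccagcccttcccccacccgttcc

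All levels are RMA values on a log2 scale, so a difference of 1 is a doubling of signal. RMA brings the arrays to a common distribution and compresses changes of dim genes. A gene was called when limma gave it an adjusted p under 0.05, by the Benjamini-Hochberg method over all 19937 genes. Levels of different genes come from different probe sets and are not compared with each other. Nfat5 itself was at 9.29, 9.29, 9.12 and 8.67 in KO cells with LPS, against 9.95, 10.56, 9.97 and 9.80 in WT cells with LPS (exact two-sided permutation test p = 0.0286, the smallest that 4 against 4 arrays can give). Without LPS it was at 8.93, 9.03, 9.20 and 8.99 in KO cells, against 9.15, 9.41, 9.34 and 9.67 in WT cells (exact p = 0.0571). The groups did not overlap with LPS and overlapped without it. The 8 measured macrophage markers averaged between 12.02 and 12.40 on every array. Without LPS they averaged 12.03 to 12.18 in KO and 12.32 to 12.40 in WT. With LPS the order was reversed, at 12.21 to 12.23 in KO and 12.02 to 12.15 in WT. Lists of granulocyte, B cell, T cell, erythroid, stromal and dendritic cell markers averaged between 5.57 and 6.68. The female transcript Xist was above the Y-linked Kdm5d on 10 arrays, all 8 of WT and those numbered 4 of KO, and below it on the other 6, so sex and genotype largely coincide. On the second principal component, with 7.55% of the variance, the arrays numbered 4 of KO with LPS (31.36), WT with LPS (18.55) and unstimulated KO (24.42) stood apart, and that of unstimulated WT (6.42) did not.

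**Figure D1:**
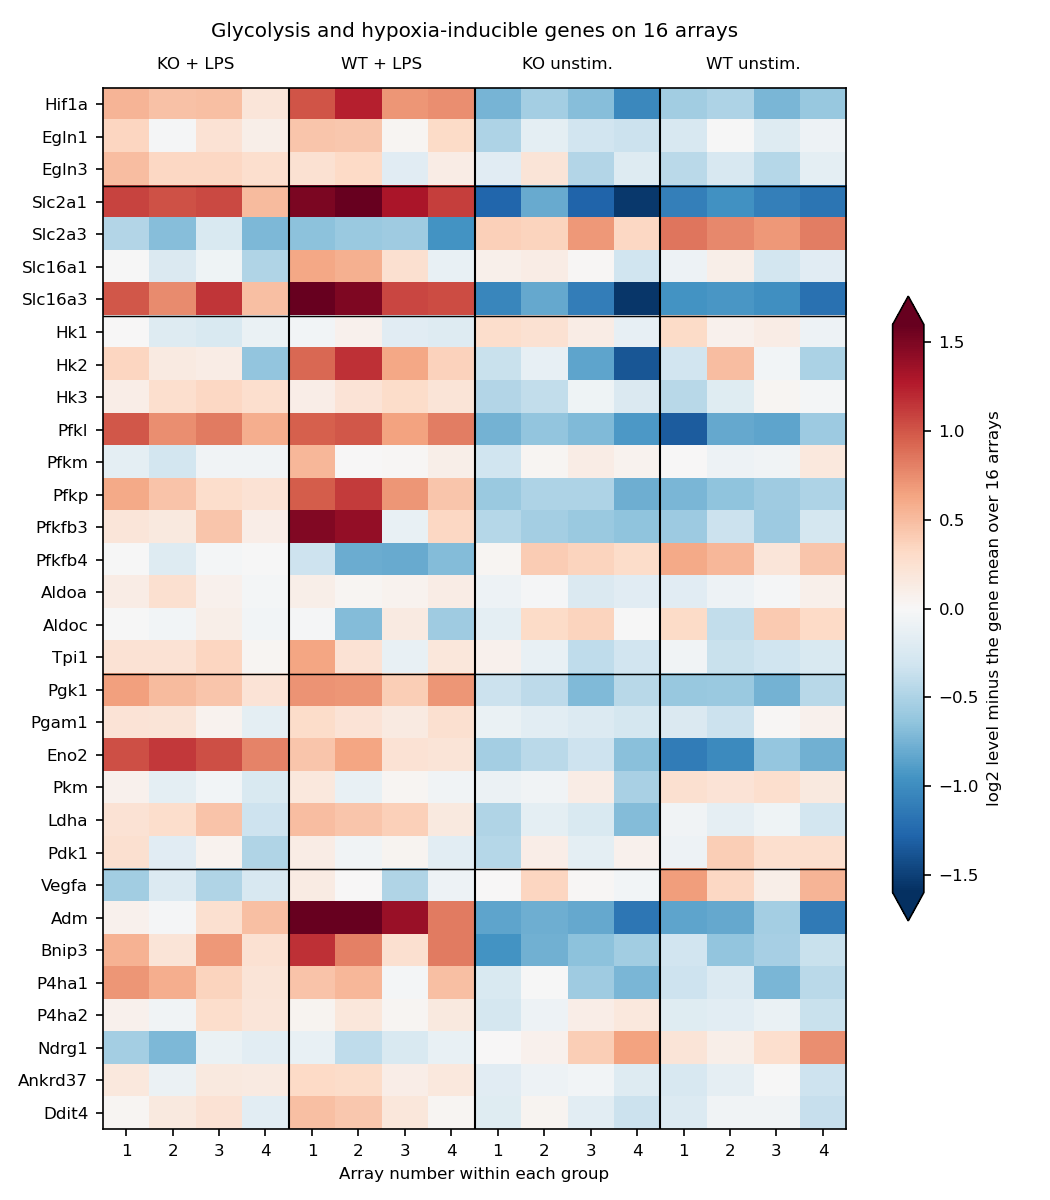
Each row is 1 of the 32 genes and each column 1 of the 16 arrays, grouped as KO with LPS, WT with LPS, KO unstimulated and WT unstimulated. Colour gives the log2 level minus the gene's mean over all arrays, and the strongest contrast runs between the 8 arrays with LPS and the 8 without.

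LPS raised 16 of the 32 transcripts in KO and 22 in WT, and the transcripts that rose in both included Slc2a1, Slc16a3, Pfkl and Pfkp. Another 4 fell in each genotype, which left 12 not called in KO and 6 in WT. Among all genes tested, 24.7% were called in KO (12% higher and 12.7% lower) and 30.8% in WT (14% higher and 16.8% lower). The shares of 62.5% and 81.2% in the set lie above this background of all genes, dim ones included. A filter keeping genes with a group mean of at least 7 kept 29 of the 32 and 11084 of all 19937 genes. The part of signal level in these shares was not tested. The median log2 difference of the 32 genes was 0.44 in KO and 0.45 in WT, against 0.01 and 0.06 over all genes. At least 2-fold calls numbered 7 in KO and 12 in WT, against backgrounds of 6.29% and 8.16%. The LPS and unstimulated arrays did not overlap for 18 genes in KO and 21 in WT, against 24.8% and 32.3% of all genes. All 16 genes that rose in KO also rose in WT, where they were 72.7% of the rises, and the 4 that fell were the same in both. Over all genes the shared rises were 79% of those in KO and 67.9% of those in WT, and the shared falls 89% of those in KO and 67.2% of those in WT. With each array centred on its median the split in KO was 19 higher and 2 lower.

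**Figure D2:**
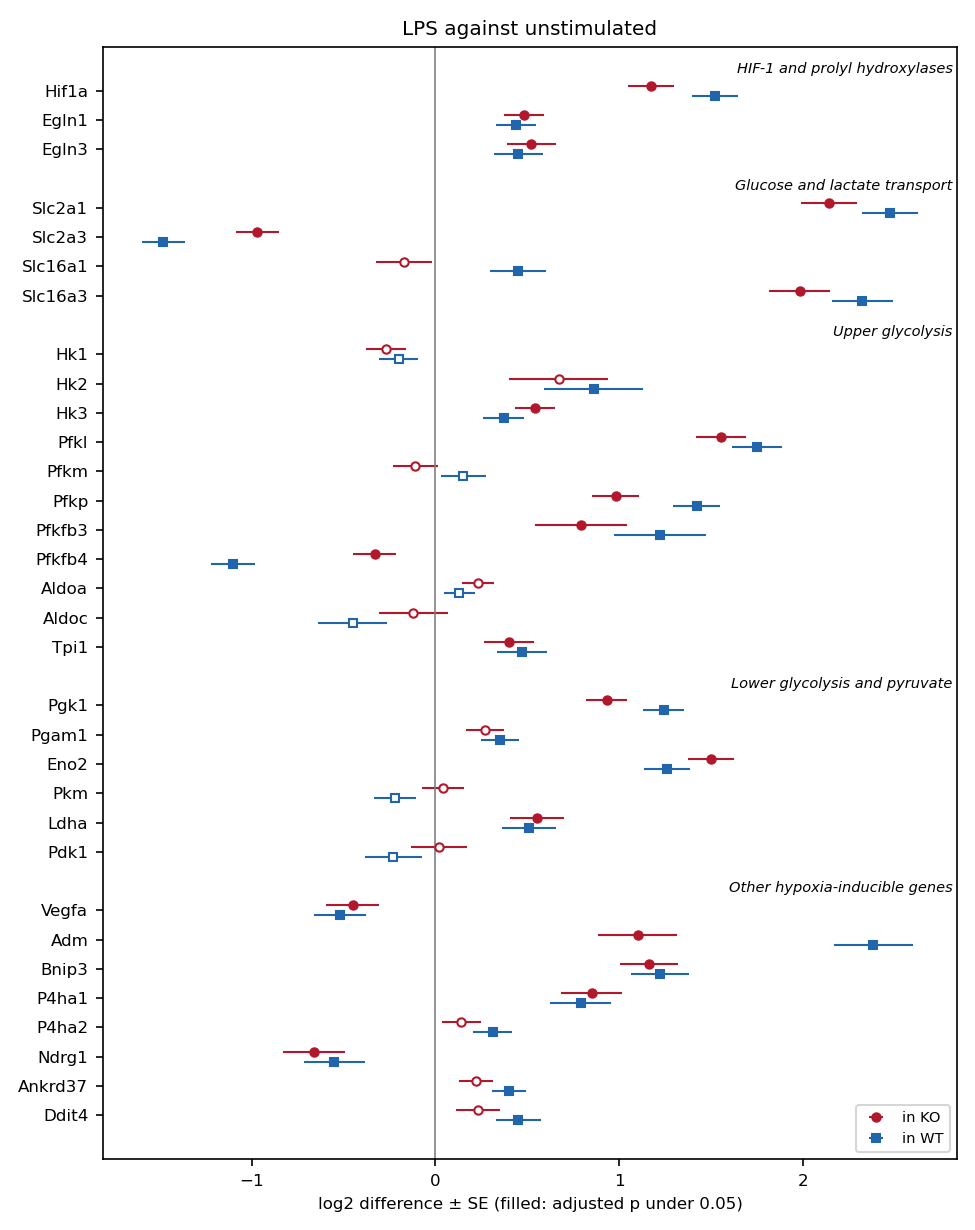
Points give the log2 difference between LPS and unstimulated arrays with its standard error, circles for KO and squares for WT, for the 32 genes in 5 groups by role. Filled symbols passed the adjusted p threshold, and Slc2a1, Slc16a3 and Pfkl lie far to the right in both genotypes while Slc2a3 lies to the left.

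Hif1a, the regulated subunit of HIF-1, was at 11.78, 11.71, 11.72 and 11.43 in KO cells with LPS, against 10.50, 10.69, 10.56 and 10.21 without. In WT cells it was at 12.24, 12.48, 11.95 and 11.98 with LPS, against 10.68, 10.74, 10.51 and 10.63 without. Every array with LPS lay above every unstimulated array. The rise was 1.17 ± 0.125 in KO (SE, adjusted p = 7.98e-07) and 1.52 ± 0.125 in WT (adjusted p = 2.01e-08). Of the prolyl hydroxylases that tag Hif1a for destruction, Egln1 rose by 0.48 in KO and 0.44 in WT. Egln3 rose by 0.52 in KO and by 0.45 in WT, where the call was lost without WT LPS array 2 (adjusted p = 0.0525).

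The 2 main glucose transporters moved in opposite directions. Slc2a1 (GLUT1) was at 12.36, 12.30, 12.33 and 11.79 in KO cells with LPS, against 10.01, 10.47, 10 and 9.74 without. In WT cells Slc2a1 was at 12.79, 12.91, 12.59 and 12.38 with LPS, against 10.18, 10.31, 10.19 and 10.11 without. This was 4.41-fold in KO (log2 2.14 ± 0.154, SE, adjusted p = 4.7e-09) and 5.54-fold in WT (log2 2.47 ± 0.154, adjusted p = 5.08e-10), with wide gaps between the groups. Slc2a3 (GLUT3) was at 6.93, 6.72, 7.15 and 6.68 in KO cells with LPS, against 7.78, 7.75, 8.09 and 7.73 without. In WT cells Slc2a3 was at 6.74, 6.81, 6.83 and 6.44 with LPS, against 8.26, 8.17, 8.09 and 8.22 without. It fell in both genotypes with no overlap, with log2 differences of -0.97 ± 0.117 in KO (adjusted p = 3.82e-06) and -1.48 ± 0.117 in WT (adjusted p = 1.23e-08).

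Of the lactate transporters, Slc16a3 rose in both genotypes and Slc16a1 was called in WT. Slc16a3 (MCT4), which mainly exports lactate, was at 10.83, 10.59, 10.98 and 10.31 in KO cells with LPS, against 8.79, 9.01, 8.73 and 8.28 without. In WT cells Slc16a3 was at 11.44, 11.33, 10.90 and 10.88 with LPS, against 8.88, 8.90, 8.85 and 8.64 without. It rose 3.94-fold in KO (adjusted p = 3.73e-08) and 4.99-fold in WT (adjusted p = 3.5e-09), with all LPS arrays above all unstimulated ones. Slc16a1 (MCT1) was at 6.62, 6.40, 6.56 and 6.15 in KO cells with LPS, against 6.71, 6.75, 6.65 and 6.31 without. In WT cells Slc16a1 was at 7.24, 7.20, 6.88 and 6.51 with LPS, against 6.54, 6.72, 6.33 and 6.45 without. These groups overlapped, and the log2 difference was -0.17 ± 0.153 in KO (adjusted p = 0.529) and 0.45 ± 0.153 in WT (adjusted p = 0.0313). The call in WT was lost without WT LPS array 1 or 2 or WT unstimulated array 3 or 4 (0.0726 to 0.113).

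Hexokinases trap glucose in the cell as glucose 6-phosphate, and of the 3 isoforms Hk3 was called in both genotypes, Hk2 in WT and Hk1 in neither. The isoforms were not tested against each other. Hk1, the housekeeping form, was at 12.02, 11.81, 11.77 and 11.91 in KO cells with LPS, against 12.30, 12.26, 12.13 and 11.89 without, and was not called (log2 -0.27 ± 0.107, adjusted p = 0.0849). In WT cells Hk1 was at 11.97, 12.08, 11.83 and 11.81 with LPS, against 12.32, 12.09, 12.13 and 11.94 without (log2 -0.20 ± 0.107, adjusted p = 0.188). Its other probe set gave log2 differences of 0.01 in KO and 0.14 in WT, so the direction of Hk1 differed between probe sets. Hk2, the inducible form, was at 9.30, 9.10, 9.08 and 8.33 in KO cells with LPS, against 8.60, 8.82, 8.11 and 7.59 without (log2 0.67 ± 0.268, adjusted p = 0.0812). It was higher with LPS in 4 of 4 pairs of the same number, and was called with a sex term (0.0172), without all arrays numbered 4 (0.0382), and without KO LPS array 4 or KO unstimulated array 2 (0.0204 and 0.0311). In WT cells Hk2 was at 9.88, 10.12, 9.58 and 9.33 with LPS, against 8.65, 9.45, 8.91 and 8.45 without. Hk2 varied widely among arrays, its groups overlapped in both genotypes, and its rise in WT (0.86 ± 0.268, adjusted p = 0.0192) was lost without WT LPS array 1 or 2 or WT unstimulated array 1 or 4 (0.0521 to 0.0755). Hk3, a form abundant in myeloid cells, was at 10.27, 10.43, 10.49 and 10.43 in KO cells with LPS, against 9.69, 9.76, 10.09 and 9.93 without. In WT cells Hk3 was at 10.27, 10.38, 10.45 and 10.36 with LPS, against 9.71, 9.96, 10.19 and 10.13 without. It rose by 0.54 in KO and 0.37 in WT with no overlap, and the call in WT was lost without WT unstimulated array 1 (adjusted p = 0.0572).

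Phosphofructokinase commits sugar to glycolysis, and its liver and platelet isoforms rose while the muscle isoform was not called. Pfkl was at 10.45, 10.20, 10.29 and 10.04 in KO cells with LPS, against 8.70, 8.82, 8.75 and 8.54 without. In WT cells Pfkl was at 10.41, 10.45, 10.10 and 10.27 with LPS, against 8.12, 8.63, 8.61 and 8.87 without. The groups were far apart, 2.92-fold in KO (log2 1.55 ± 0.136, adjusted p = 6.4e-08) and 3.37-fold in WT (log2 1.75 ± 0.136, adjusted p = 8.94e-09). Pfkp was at 9.48, 9.33, 9.15 and 9.11 in KO cells with LPS, against 8.28, 8.38, 8.38 and 8.09 without. In WT cells Pfkp was at 9.85, 9.99, 9.58 and 9.32 with LPS, against 8.14, 8.23, 8.31 and 8.38 without. Pfkp rose without overlap, by 0.98 ± 0.129 in KO (adjusted p = 9.61e-06) and 1.42 ± 0.129 in WT (adjusted p = 7.58e-08). Pfkm was at 7.69, 7.55, 7.79 and 7.79 in KO cells with LPS, against 7.53, 7.88, 7.97 and 7.90 without. In WT cells Pfkm was at 8.38, 7.85, 7.86 and 7.94 with LPS, against 7.85, 7.77, 7.79 and 8.01 without. Its groups overlapped, and the 95% intervals of the log2 difference ran from -0.38 to 0.15 in KO and from -0.11 to 0.42 in WT.

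Bifunctional PFKFB enzymes set the level of fructose 2,6-bisphosphate, the strongest activator of phosphofructokinase, and the 2 isoforms of the set moved in opposite directions. Pfkfb3, the isoform with the highest kinase activity, was at 9, 8.96, 9.25 and 8.91 in KO cells with LPS, against 8.35, 8.26, 8.21 and 8.16 without. In WT cells Pfkfb3 was at 10.28, 10.21, 8.68 and 9.13 with LPS, against 8.22, 8.46, 8.22 and 8.52 without. WT LPS arrays 1 and 2 lay more than 1 unit above arrays 3 and 4. The rise was 0.79 ± 0.25 in KO (adjusted p = 0.0256, lost without KO LPS array 3 or KO unstimulated array 3 or 4, 0.0556 to 0.0777) and 1.22 ± 0.25 in WT (adjusted p = 0.000789). Pfkfb4 was at 8.67, 8.47, 8.64 and 8.67 in KO cells with LPS, against 8.70, 9.08, 9.03 and 8.96 without. In WT cells Pfkfb4 was at 8.34, 7.88, 7.87 and 7.98 with LPS, against 9.28, 9.20, 8.87 and 9.11 without. It fell by 0.33 on the log2 scale in KO (adjusted p = 0.048) and fell by 1.10 in WT (adjusted p = 6.56e-07), and the groups did not overlap in either genotype. The call in KO was lost without any 1 of 7 of the 8 KO arrays (0.0607 to 0.142), the exception being KO unstimulated array 1, and with median centring (0.104).

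Further along the pathway, Pgk1, which makes the first ATP, was at 11.70, 11.55, 11.49 and 11.27 in KO cells with LPS, against 10.71, 10.63, 10.34 and 10.61 without. In WT cells Pgk1 was at 11.77, 11.76, 11.44 and 11.75 with LPS, against 10.44, 10.45, 10.29 and 10.60 without. It rose by 0.93 ± 0.112 in KO (adjusted p = 3.54e-06) and 1.24 ± 0.112 in WT (adjusted p = 7.23e-08) with no overlap. Pgk1 lies on the X chromosome. Eno2, an enolase best known from neurons, was at 8.97, 9.07, 8.98 and 8.74 in KO cells with LPS, against 7.40, 7.51, 7.61 and 7.27 without. In WT cells Eno2 was at 8.39, 8.58, 8.18 and 8.15 with LPS, against 6.83, 6.92, 7.33 and 7.17 without. Eno2 rose 2.82-fold in KO (adjusted p = 3.51e-08) and 2.4-fold in WT (adjusted p = 2.23e-07), with no overlap in either genotype.

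The remaining enzymes changed less. Ldha, which turns pyruvate into lactate, rose by 0.55 in KO and 0.51 in WT. Tpi1, which interconverts the triose phosphates, rose by 0.40 in KO and 0.47 in WT, but these calls were lost without any 1 of 6 KO arrays (0.0545 to 0.129) and without WT LPS array 1 (0.0533). Pgam1, a phosphoglycerate mutase, rose by 0.35 in WT (lost without WT unstimulated array 2, 0.0625) and had 0.27 ± 0.104 in KO (adjusted p = 0.07). The aldolases were not called: Aldoa had 0.23 ± 0.0861 in KO (adjusted p = 0.067) and 0.13 ± 0.0861 in WT, and Aldoc had -0.12 ± 0.188 in KO and -0.45 ± 0.188 in WT (0.0815). Aldoa in KO was called with median centring (0.0343), the filter on dim genes (0.0476), the variance trend (0.0311) and without KO LPS array 4 (0.0354). Aldoc in WT was called without WT unstimulated array 2 (0.00916) or WT LPS array 3 (0.0247). Pkm, the pyruvate kinase of macrophages, averaged 11.33 ± 0.14 in KO with LPS and 11.29 ± 0.27 without, and 11.43 ± 0.12 in WT with LPS and 11.65 ± 0.05 without (SD, n = 4). It was called in neither genotype (adjusted p = 0.88 in KO and 0.179 in WT), and its 2 splice forms cannot be told apart here. Pdk1, which blocks the entry of pyruvate into mitochondria, was not called either (adjusted p = 0.955 in KO and 0.29 in WT).

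Among the other hypoxia-inducible genes, Adm, which encodes the vasodilator peptide adrenomedullin, was at 7.06, 6.97, 7.25 and 7.48 in KO cells with LPS, against 6.15, 6.21, 6.17 and 5.84 without. In WT cells Adm was at 8.68, 9.26, 8.38 and 7.82 with LPS, against 6.15, 6.17, 6.45 and 5.86 without. It rose 2.14-fold in KO (adjusted p = 0.000677) and 5.2-fold in WT (adjusted p = 6.88e-08), with no overlap in either genotype. Bnip3, a mitophagy receptor, rose by 1.16 ± 0.159 in KO and 1.22 ± 0.159 in WT, and its other probe set by 0.77 and 1.01. P4ha1, a collagen prolyl hydroxylase subunit, was at 10.74, 10.62, 10.39 and 10.24 in KO cells with LPS, against 9.79, 10.03, 9.47 and 9.30 without. In WT cells P4ha1 was at 10.49, 10.57, 10 and 10.52 with LPS, against 9.70, 9.82, 9.30 and 9.61 without. P4ha1 rose by 0.85 in KO and 0.79 in WT with no overlap. Its paralogue P4ha2 rose by 0.31 in WT (lost without any 1 of 4 WT arrays, 0.0503 to 0.101) and had 0.14 ± 0.105 in KO (adjusted p = 0.417). P4ha2 lay between 6.47 and 6.81 in KO with LPS and between 6.25 and 6.70 without, and between 6.56 and 6.71 in WT with LPS and between 6.17 and 6.42 without. Ankrd37 and Ddit4, an inhibitor of mTOR signalling, rose in WT by 0.40 and 0.45, and in KO had 0.22 ± 0.093 and 0.23 ± 0.121 without a call.

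Several classical hypoxia targets went down. Vegfa, the angiogenic factor, averaged 8.09 ± 0.16 in KO with LPS and 8.54 ± 0.18 without, and 8.36 ± 0.27 in WT with LPS and 8.87 ± 0.25 without (SD, n = 4). It fell by 0.45 in KO (adjusted p = 0.025) and fell by 0.52 in WT (adjusted p = 0.00917), and the KO call was lost with median centring (0.0611) and without KO LPS array 1 or 3 or KO unstimulated array 2 (0.0716 to 0.0951). The call in WT was lost without all arrays numbered 4 (0.0584). Ndrg1, a stress-responsive gene, fell by 0.66 in KO (adjusted p = 0.00558) and fell by 0.55 in WT (adjusted p = 0.0163), where the call was lost without WT LPS array 2 or WT unstimulated array 4 (0.0543 and 0.0729). Together with Slc2a3 and Pfkfb4 these were the 4 falls.

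**Figure D3:**
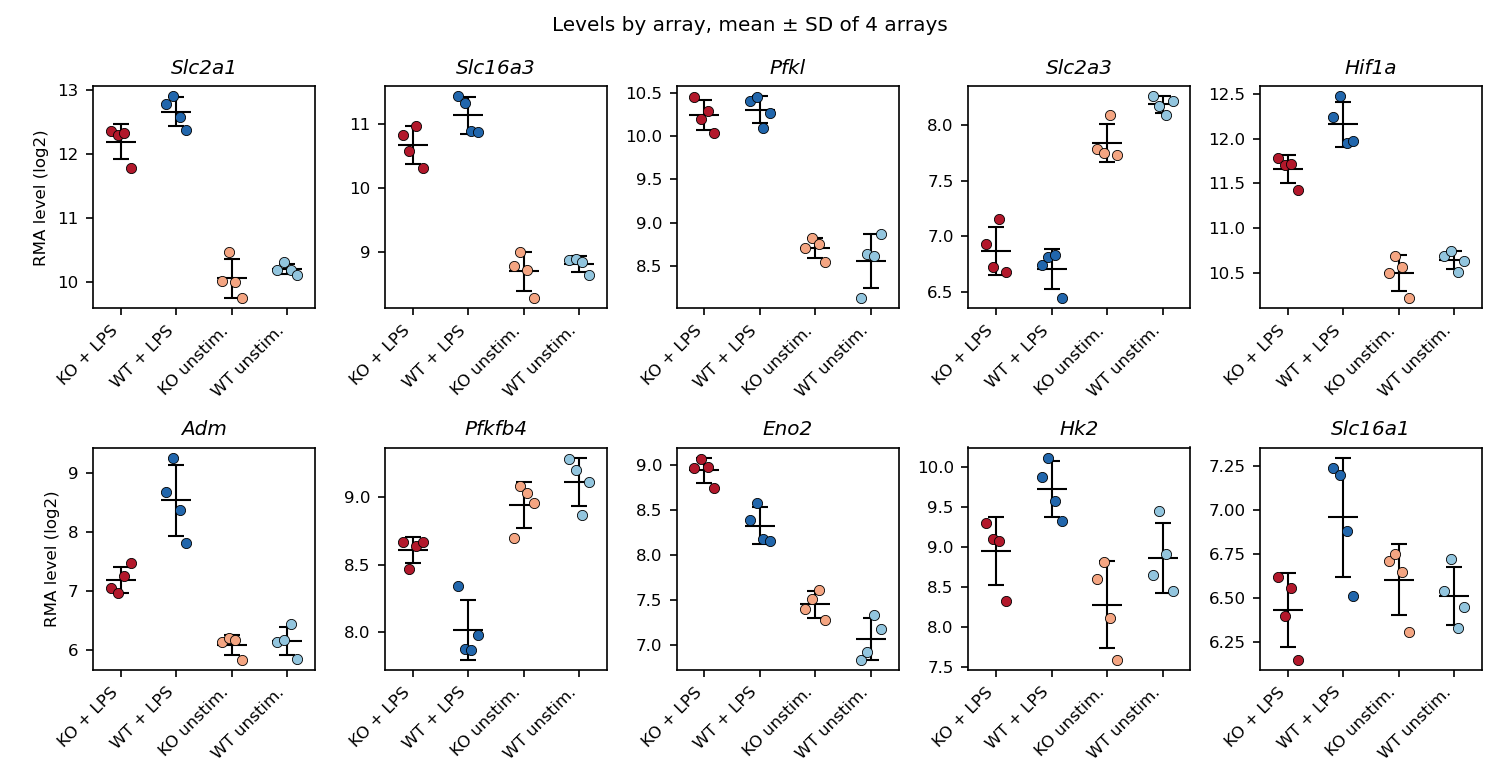
Points are the 4 arrays of each group for 10 genes, on the log2 RMA scale, in the order KO with LPS, WT with LPS, KO unstimulated and WT unstimulated, with bars for the mean and SD. Slc2a1, Slc16a3 and Pfkl separate by LPS, and Adm lies at or below 7.48 in all 4 KO arrays with LPS and at or above 7.82 in all 4 WT arrays with LPS.

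With LPS, Adm and Hif1a were lower and Eno2 and Pfkfb4 higher in KO than in WT. These 4 of 32 genes (12.5%) compare with 3.05% of all genes called in this comparison (1.8% higher and 1.26% lower). Adm was the 1 call of at least 2-fold, against 0.582% of all genes. Adm was at 7.06, 6.97, 7.25 and 7.48 in KO cells, against 8.68, 9.26, 8.38 and 7.82 in WT cells, 2.54-fold lower (log2 -1.35 ± 0.215, SE, adjusted p = 0.00127), and it was lower in all 4 pairs of the same number, with differences from -2.29 to -0.35. The smallest of these pair differences was that of the arrays numbered 4. Hif1a was at 11.78, 11.71, 11.72 and 11.43 in KO cells, against 12.24, 12.48, 11.95 and 11.98 in WT cells. Its groups did not overlap, but the call (log2 -0.50 ± 0.125, adjusted p = 0.0344) was lost without any 1 of 6 of the 8 arrays, all but WT LPS arrays 3 and 4 (0.0542 to 0.16), and in the fit of these 8 arrays alone (0.0805). Pfkfb4 was at 8.67, 8.47, 8.64 and 8.67 in KO cells, against 8.34, 7.88, 7.87 and 7.98 in WT cells (log2 0.59 ± 0.118, adjusted p = 0.00756). Eno2 was at 8.97, 9.07, 8.98 and 8.74 in KO cells, against 8.39, 8.58, 8.18 and 8.15 in WT cells (log2 0.62 ± 0.125, adjusted p = 0.00913). For Pfkfb4 and Eno2 every KO array lay above every WT array, and the calls of these 2 genes and of Adm held without any 1 of the 8 arrays. Without all arrays numbered 4 Pfkfb4 was not called (0.56, adjusted p = 0.0638). With Slc2a1, Hk2 and Pfkm, 7 of the 32 genes had groups that did not overlap, against 7.73% of all genes.

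Arrays of the same number deviated together in both genotype comparisons, and with the number as a block 4 more genes were lower in KO with LPS, which made 2 higher and 6 lower. Calls over all genes also moved with the fit, from 89 to 1149 over the alternatives, against 609 as reported. The gain within the set was not tested against that of all genes. Slc2a1 was at 12.36, 12.30, 12.33 and 11.79 in KO cells, against 12.79, 12.91, 12.59 and 12.38 in WT cells, a log2 difference of -0.47 ± 0.154 (adjusted p = 0.132, and 0.0116 with the block). Hk2 was at 9.30, 9.10, 9.08 and 8.33 in KO cells, against 9.88, 10.12, 9.58 and 9.33 in WT cells, with -0.77 ± 0.268 (adjusted p = 0.173, and 0.00304 with the block). In neither gene did the groups overlap, and both were lower in KO in 4 of 4 pairs. Slc16a1 differed by -0.53 ± 0.153 (adjusted p = 0.0769, and 0.00745 with the block) and was lower in 4 of 4 pairs. Its means, 6.43 in KO and 6.96 in WT with LPS, were low and lay around the array medians. Slc16a3 differed by -0.46 ± 0.167 (adjusted p = 0.209, and 0.0362 with the block) and was lower in 3 of 4. The other 24 genes were not called in either of these fits of all 16 arrays. Among them Pfkp had -0.42 ± 0.129 (adjusted p = 0.106, and 0.0556 with the block), and it was called with the block in the 8 arrays compared (0.0292), where Slc16a3 was not, and without all arrays numbered 4 (0.0372). Without a call in either fit were Pfkfb3, with -0.54 ± 0.25 (0.411), and Ldha, with -0.21 ± 0.147 (0.771). Over the 32 genes the median difference was -0.15, against -0.01 for all genes, and 23 had a negative sign. For Hk1 the second probe set differed by -0.44 (adjusted p = 0.0576 over 21640 probe sets) and the brightest by -0.04.

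Sex-linked transcripts and array number move with these values. The KO array numbered 4 with LPS, the 1 with Xist above Kdm5d, was the lowest of its group for 20 of the 32 genes. In WT with LPS the array numbered 4 was the lowest for 12 and that numbered 3 for 14. When only the 10 arrays with Xist above Kdm5d were fitted, 0 of the 32 were called in limma in this comparison, with 1 KO array per treatment whose variation is taken from the WT groups. There the differences were -1.06 for Adm, -0.73 for Hif1a, 0.65 for Pfkfb4 and 0.42 for Eno2. When a sex term was added to the fit of all arrays, Eno2 was not called (0.43, adjusted p = 0.132), and Slc2a1, Hk2, Ldha, Slc16a1 and Slc16a3 were, with differences from -0.6 to -1.43. All WT arrays have Xist above Kdm5d, so this term was set by the KO arrays numbered 4 against the other KO arrays. In that fit sex cannot be told apart from array number. With the sex term and the replicate block together, chosen after seeing the data, all 4 calls were lost: Adm had -0.82 (adjusted p = 0.226), Hif1a -0.66 (0.0544), Pfkfb4 0.65 (0.162) and Eno2 0.46 (0.314). Hk2 was the 1 gene called there (-1.02, 0.0395). Summed macrophage markers lay between 15.59 and 15.61 on the log2 scale in KO with LPS and between 15.54 and 15.59 in WT with LPS, and their part in the result was not tested.

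**Figure D4:**
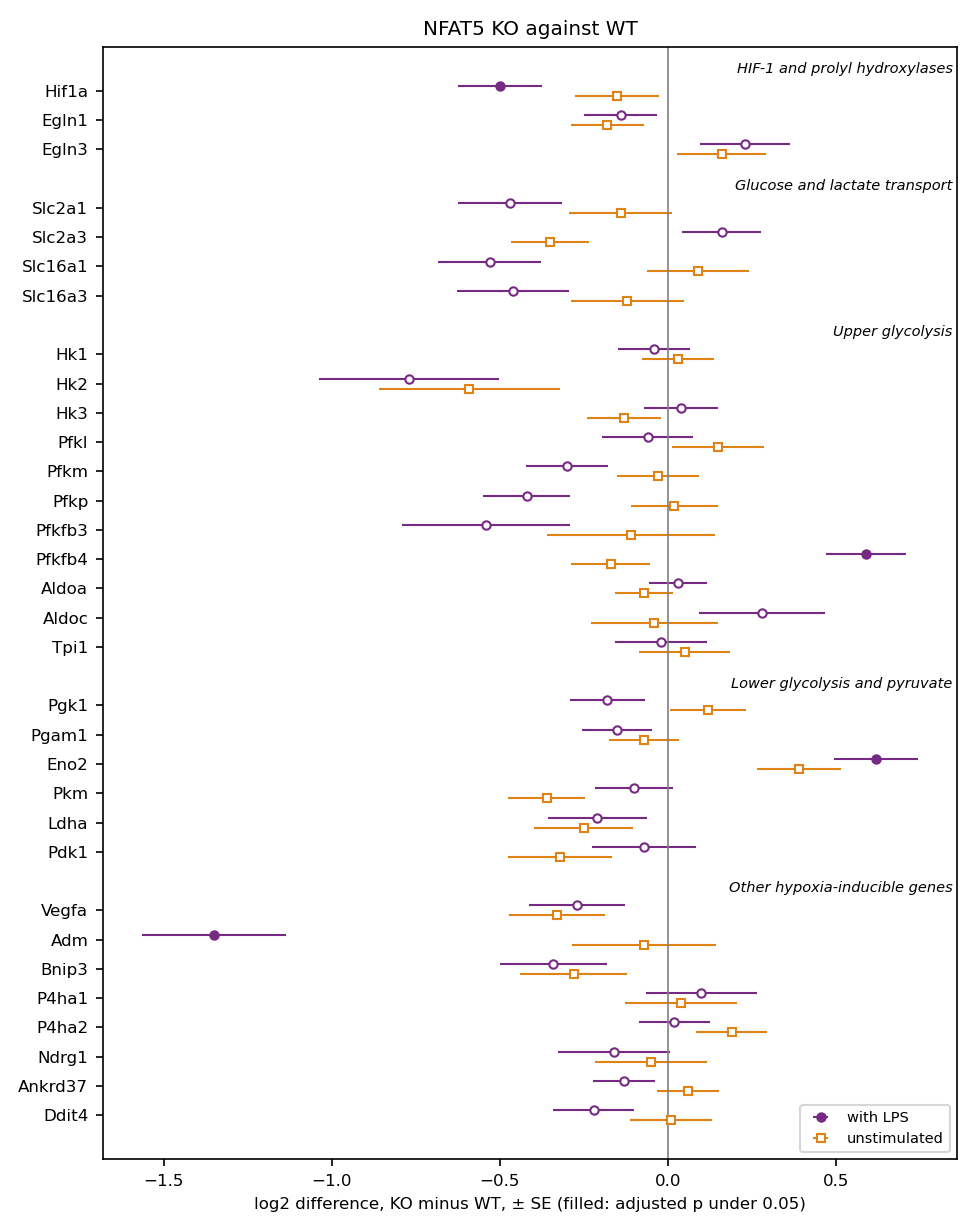
Points give the log2 difference of KO minus WT with its standard error, circles with LPS and squares unstimulated. Filled circles mark Adm, Hif1a, Pfkfb4 and Eno2, and no square is filled.

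Without LPS, 0 of the 32 genes were called between KO and WT in limma, against 1% of all genes (0.14% higher and 0.863% lower). At an unadjusted p under 0.05 there were 5, namely Slc2a3, Hk2, Eno2, Pkm and Vegfa, against a background of 7.83%. Pkm was at 11.33, 11.37, 11.54 and 10.91 in KO cells, against 11.68, 11.64, 11.70 and 11.58 in WT cells, and Slc2a3 at 7.78, 7.75, 8.09 and 7.73 in KO cells, against 8.26, 8.17, 8.09 and 8.22 in WT cells. For Pkm the highest KO array, at 11.54, lay just below the lowest WT array, at 11.58, and for Slc2a3 the highest KO array met the lowest WT array at 2 decimals. Such separation was found for 4.33% of all genes, and the log2 differences were -0.36 ± 0.115 (adjusted p = 0.25) and -0.35 ± 0.117 (0.287). On the other probe set of Pkm the groups overlapped, with KO array 3 at 10.99 and WT array 4 at 10.95. There the difference was -0.30 (adjusted p = 0.504 over 21640 probe sets). Hk2 had -0.59 ± 0.268 (adjusted p = 0.614, and 0.0424 with the number as a block), Eno2 0.39 ± 0.125 (0.263) and Vegfa -0.33 ± 0.143 (0.578). Hif1a, Slc2a1 and Adm differed by -0.15 ± 0.125, -0.14 ± 0.154 and -0.07 ± 0.215, with 95% intervals from -0.42 to 0.12, from -0.48 to 0.19 and from -0.54 to 0.40. With a sex term Hk2, Pkm and Ldha were called lower (-1.24, -0.62 and -0.64). That term was again set by the KO arrays numbered 4 against the other KO arrays.

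Whether LPS acted to the same extent in KO and WT was tested directly, and 2 of the 32 genes (6.25%) were called, against 1.29% of all genes. Of all genes 0.988% were called with a positive and 0.301% with a negative difference. Adm rose by 1.10 ± 0.215 in KO and 2.38 ± 0.215 in WT, a difference in response of -1.28 ± 0.305 (adjusted p = 0.046). Pfkfb4 fell by 0.33 in KO and fell by 1.10 in WT, a difference of 0.76 ± 0.167 (adjusted p = 0.0314). Each of these calls was lost on leaving out single arrays: Adm kept it in 3 of 16 such fits, with adjusted p between 0.00802 and 0.099, and Pfkfb4 in 6 of 16, between 0.0147 and 0.0792. Slc16a1, with -0.62 ± 0.216, was called with the replicate number as a block (adjusted p = 0.0425) and not without it (0.233). Of the 16 genes that rose in both genotypes, 10 had the smaller estimate in KO and 6 the larger, and Adm was the only 1 of the 16 whose response differed by the test. For Hif1a the difference was -0.35 ± 0.177 (adjusted p = 0.534), for Slc2a1 -0.33 ± 0.217 (0.697) and for Slc2a3 0.52 ± 0.166 (0.18).

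Other genes of the same pathways were taken from 5 lists. Among 26 measured of 29 other glycolytic and hexose genes, 3 rose and 5 fell with LPS in KO and 2 rose and 6 fell in WT, 30.8% in each, against 24.7% and 30.8% of all genes. Between KO and WT 1 was called with LPS and 1 without (3.85% each, against 3.05% and 1% of all genes). Gpd2, the mitochondrial glycerol phosphate dehydrogenase, rose 6.65-fold in KO and 7.76-fold in WT. Slc2a6 (GLUT6) rose by 2.24 ± 0.124 in KO and 1.40 ± 0.124 in WT, and without LPS it was lower in KO (log2 -0.99 ± 0.124, adjusted p = 0.000189). Its responses differed by 0.83 ± 0.176 (adjusted p = 0.0245). Slc16a7 (MCT2), a high-affinity lactate and pyruvate transporter, fell by 1.55 in KO and fell by 2.51 in WT, and with LPS it was higher in KO by 0.95 (adjusted p = 0.000784). Its responses differed by 0.97 ± 0.202 (adjusted p = 0.0236). Pfkfb2 fell by 0.82 in KO and fell by 1.41 in WT, the direction of Pfkfb4 and not of Pfkfb3.

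Of 14 measured genes for HIF subunits and their oxygen-dependent control, 6 rose and 1 fell in each genotype (50%, against 24.7% of all genes in KO and 30.8% in WT). Between KO and WT 0 were called in limma in either state, against 3.05% of all genes with LPS and 1% without, and 3 had an unadjusted p under 0.05 in each state, against 11.3% and 7.83% of all genes. Siah2, a ligase that limits prolyl hydroxylases, rose by 0.97 in KO and 1.28 in WT. Vhl, Cul2 and Eloc, parts of the ligase that destroys hydroxylated HIF, rose by 0.70, 0.75 and 0.78 in KO and by 0.51, 0.54 and 1.09 in WT. The 1 fall in each genotype, named after its value was seen, was Epas1, the alpha subunit of HIF-2. Epas1 fell by 1.15 in KO and fell by 1.52 in WT, opposite to Hif1a. Its groups did not overlap in WT. They overlapped in KO, where unstimulated array 3 was at 8.03 and the LPS arrays ran from 7.48 to 8.52.

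Of 36 measured of 38 other hypoxia-inducible genes, 10 rose and 7 fell in KO (47.2%, against 24.7% of all genes) and 14 rose and 8 fell in WT (61.1%, against 30.8%). Between KO and WT 2 were called with LPS (5.56%, against 3.05%) and 1 without (2.78%, against 1%). Ak4, a mitochondrial adenylate kinase, rose 9.24-fold in KO and 13.4-fold in WT, and Lox, which crosslinks collagen, 14.1-fold and 9.25-fold. The cytokine Il1b rose 30.4-fold in KO and 22-fold in WT. The chemokine receptor Cxcr4 fell 8.07-fold in KO and 10.4-fold in WT, and with LPS was higher in KO by 0.60 (adjusted p = 0.00652). The other gene called with LPS was Nfil3, a transcription factor, lower in KO (log2 -1.05 ± 0.217, adjusted p = 0.00986), and the 1 called without LPS was Angptl4, an inhibitor of lipoprotein lipase, higher by 0.48 (adjusted p = 0.031). These 2 were named after their values were seen. For Nfil3 with LPS, differences between arrays of the same number ran from -1.71 to -0.22, the smallest being that of the arrays numbered 4.

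Of 11 measured of 12 genes of pyruvate oxidation, 4 rose and 2 fell in KO (54.5%, against 24.7% of all genes) and 2 rose and 2 fell in WT (36.4%, near the 30.8% of all genes). Pdk2, a kinase that inhibits pyruvate dehydrogenase, fell by 1.79 in KO and fell by 2.30 in WT, and Pdp1, the opposing phosphatase, fell by 0.92 and fell by 0.52. Dld, a subunit of the complex, rose by 0.74 in KO and 0.95 in WT. Pdk3, a further kinase, rose by 0.58 in KO (adjusted p = 0.00377) and had 0.30 ± 0.14 in WT (adjusted p = 0.119), and the responses were not called as different (adjusted p = 0.726). Between KO and WT 0 genes of this list were called in limma in either state, against 3.05% of all genes with LPS and 1% without, and 1 had an unadjusted p under 0.05 with LPS and 0 without. Of 7 measured of 8 pentose phosphate genes, 1 rose and 2 fell in each genotype (42.9%, against 24.7% of all genes in KO and 30.8% in WT). H6pd, the first enzyme of the pathway in the endoplasmic reticulum, fell by 0.91 in KO and fell by 1.52 in WT, and Taldo1, the transaldolase, by 0.50 and fell by 0.88. With LPS both were higher in KO, by 0.43 (adjusted p = 0.0469) and 0.45 (adjusted p = 0.0411). They made 28.6% of the 7 measured genes, against 3.05% of all genes. Differences between arrays of the same number ran from 0.16 to 0.72 for H6pd and from 0.19 to 0.66 for Taldo1. These calls lay near the threshold and were not followed under the alternatives. Rpe, a pentose phosphate epimerase, rose by 0.62 in KO and 0.46 in WT.

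**Figure D5:**
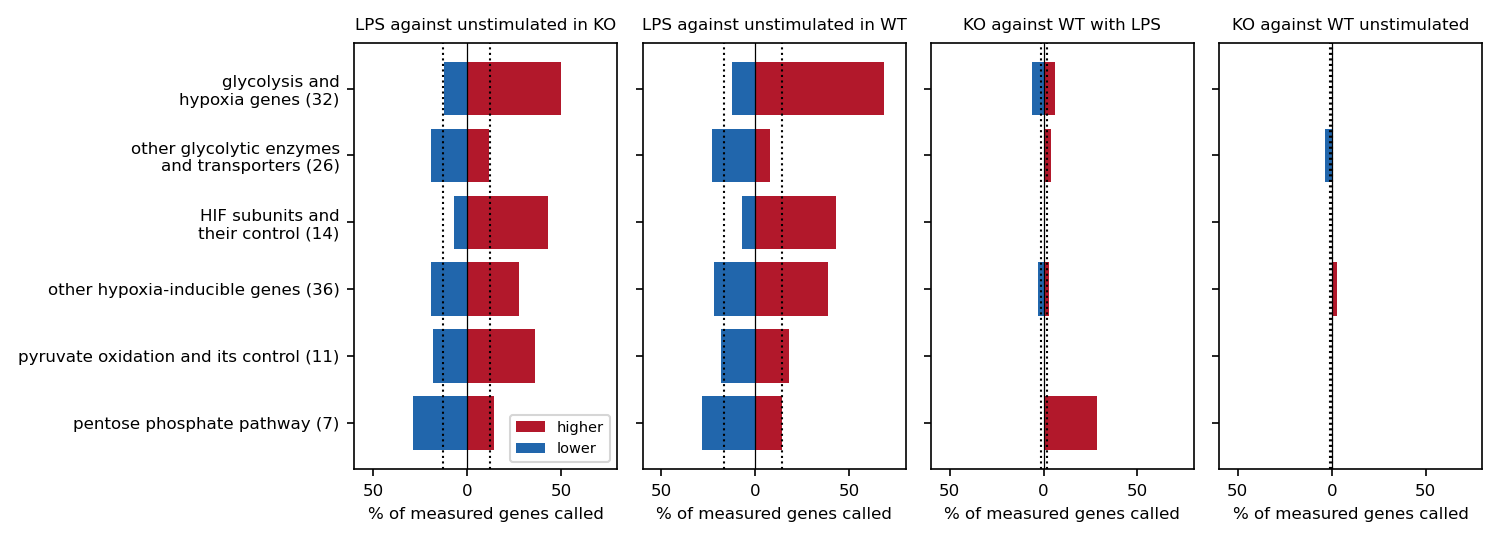
Bars give the percentage of the measured genes of each list called higher (right of 0) or lower (left of 0) in 4 comparisons, with the number measured in brackets and dotted lines at the shares over all genes. The glycolysis and hypoxia genes were called higher with LPS in 16 of 32 cases in KO and 22 of 32 in WT.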

How the data were processed

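Expression was measured on 16 1-channel Affymetrix arrays in 4 groups of 4. The deposited values are log2 signals, processed with RMA per the submitters' processing notes. The deposited table held 34760 probe sets, of which 21640 were assigned to 1 gene by the platform annotation, 1321 to several and 11799 were not listed. Array medians lay between 6.76 and 6.86.

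From these values 19937 genes were fitted with limma 3.58.1 in R 4.3.3, each by its brightest probe set, with group means over 16 arrays, 12 residual degrees of freedom and 5 contrasts. Standard errors are those of limma, and p-values were adjusted by the Benjamini-Hochberg method over all genes. The fit was also run on simulated data with independent noise on each array, without effects of array number or sex. That run does not test the calls reported here. Exact permutation tests were two-sided.

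The members and lists were chosen with earlier results of these data known. Array values are given for up to 8 called members with the smallest p in each contrast and for isoform families whose calls differ. From each other list up to 4 genes with the smallest p are named.

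Replicate numbers come from the sample labels. Deviations from the group means were correlated between KO and WT arrays of the same number. The values were 0.19, 0.36, 0.37 and 0.52 with LPS and 0.35, 0.44, 0.16 and 0.36 without, all above 0.1. The labels give a number and do not say that arrays are paired. The reported calls therefore come from the fit without a block, and the replicate block is an alternative. The SD of the differences between 2 arrays of a group ran from 0.172 to 0.381, with no measured noise level to set it against. Alternatives were a filter keeping 11084 genes with a group mean of at least 7, median centring, a variance trend, the mean of probe sets, the replicate block, fits of the compared arrays, a sex term, the 10 arrays with Xist above Kdm5d, and leaving out arrays.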

Additional observations from a re-analysis of the deposited data

Results flagged for a closer look

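In 8 of 128 groups of 4 arrays, 1 array stood apart from the other 3 by Dixon's test, which chance gives in about 1 group in 20. In KO with LPS, Slc2a1 was at 11.79 on array 4, against 12.30 to 12.36 on the others, Pfkfb4 at 8.47 on array 2, against 8.64 to 8.67, and Ankrd37 at 7.25 on array 2, against 7.49 to 7.51. In WT with LPS, array 3 was low for Pgk1, at 11.44 against 11.75 to 11.77, and for P4ha1, at 10 against 10.49 to 10.57. In unstimulated KO cells Slc2a3 was at 8.09 on array 3, against 7.73 to 7.78, and Vegfa at 8.81 on array 2, against 8.42 to 8.48. In unstimulated WT cells Aldoc was at 7.81 on array 2, against 8.51 to 8.62.

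The LPS response of 2 genes differed between KO and WT by the test of the difference itself, by 0.76 for Pfkfb4 and by -1.28 for Adm on the log2 scale.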

How the results depend on the processing

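No call among the 32 genes changed direction under any alternative run. The calls in the 5 other lists were not followed under the alternatives. The number of the 32 genes called between KO and WT with LPS was 4, and it became 8 with the replicate block, 8 in the 8 arrays compared with the replicate block, 8 with a sex term, 1 with a sex term and the replicate block (an alternative chosen after seeing the data), and 0 in the 10 arrays with Xist above Kdm5d. Without LPS it was 0, and became 1 with the replicate block and 3 with a sex term. For the difference in LPS response it was 2, and became 0 in the 10 arrays, 1 without the arrays numbered 4, and 0 without both unstimulated arrays numbered 1, also chosen after seeing the data. For LPS in KO it was 20, and became 7 in the 10 arrays, where each KO group has 1 array. The causes were not tested, and these counts were not tested against those of all genes in the same fits. Leaving out each array in turn gave 16 to 22 for LPS in KO, 21 to 27 for LPS in WT, 3 to 6 for KO against WT with LPS, 0 to 0 without LPS and 0 to 2 for the difference in response. Of the calls with LPS, 16 of 20 in KO and 18 of 26 in WT held without any 1 array. In the LPS comparisons the arrays numbered 1 correlated at -0.06 in KO and 0.05 in WT. Those numbered 2, 3 and 4 correlated at 0.43, 0.14 and 0.56 in KO and at 0.41, 0.43 and 0.25 in WT. Whether LPS and unstimulated samples of the same number share a source is not given in the labels. The block gave 22 calls in KO (adding Hk2, adjusted p = 0.00118, and Hk1, 0.0312) and 27 in WT (adding Aldoc, 0.0377). Over all genes the calls ranged over the alternatives from 1962 to 5728 (4919 as reported) for LPS in KO, from 5432 to 7048 (6132) for LPS in WT, from 89 to 1149 (609) for KO against WT with LPS, from 58 to 359 (200) without LPS and from 4 to 469 (257) for the difference in response. Sex, array number and genotype are only partly separable with 1 KO array per treatment having Xist above Kdm5d.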
